A study of Homo sapiens with 9 samples.

Results

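Guide levels of a genome-wide knockout screen were compared between HEL cells kept in ruxolitinib (RUX, 200 nM) until day 12 and HEL cells kept in the solvent DMSO over the same 12 days. Each condition had 4 libraries, out of 9 in the series. The ninth, taken at day 0, served only to drop guides whose deposited value there was under 30. Genes were then divided by position alone: a gene was set apart when its level in all 4 RUX libraries lay below, or in all 4 lay above, its level in every DMSO library. Of 19112 scored genes (19114 in the table), 579 were set apart as lower under RUX and 364 as higher. These measured gene levels are what chose the genes, so the separation is a description of them and not a test.

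HEL cells come from a human erythroleukemia and carry a mutated JAK2. All cells carried Cas9 and the Brunello lentiviral guide library, and were kept under puromycin and blasticidin, so every group shared the knockouts and the selection and differed in the drug. The cells come from a single line, and the labels do not say whether the 4 libraries of a condition were separate cultures, so each p-value measures the spread between these libraries, which may be technical. A lower level under RUX may be a fall under the drug or a rise under DMSO. With day 0 left out, the comparison cannot tell them apart.

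JAK2 is the kinase that passes on signals from cytokine receptors such as that for erythropoietin in blood cell precursors. It activates STAT5, the RAS-MAPK cascade and PI3K, which drive growth and survival of these cells, and ruxolitinib blocks the kinase domains of JAK1 and JAK2. In a pooled screen with an inhibitor, guides against a gene whose loss adds to the effect of the drug become rarer under the drug than under solvent (sensitizers), and guides against a gene whose loss is better tolerated under the drug become more frequent.

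The 8 libraries held between 19631338 and 26611323 reads on 77441 guides, of which 1000 were non-targeting controls. After each library was scaled to the same median over the control guides, the median guide value lay between 233 and 240.5. DMSO 3 stood apart from the others: its control guides had an SD of 0.51 (log2), where the remaining 7 lay between 0.27 and 0.33, and it had 2793 guides with under 30 reads where they had 1589 to 2093. The correlation of log2 gene levels between 2 libraries of a condition (Pearson's r over genes, which are not replicates) was 0.86 to 0.91 under DMSO and 0.90 to 0.91 under RUX. That between libraries of different conditions was 0.85 to 0.91. Correlation over single guides was not computed.

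Gene levels were geometric means of the scaled guide values in each library, after 5 had been added to each value and taken off again, and 18125 genes rested on 4 guides. Differences are given as RUX minus DMSO on the log2(value + 5) scale, where −1 would halve the level, and this scale understates the change of guides with few reads. The genes set apart as lower were 3.03% of all scored genes, those set apart as higher 1.9%, and both together 4.93%. Among 374 olfactory receptor genes, which blood cells do not use, 9 were lower and 8 higher in the same sense. Among 247 pseudo-genes, each made of 4 control guides, 6 were lower and 10 were higher (2.43% and 4.05%). The share of lower genes was above that of both sets (3.03% against 2.41% and 2.43%), while the share of higher genes was below that of both (1.9% against 2.14% and 4.05%), with no test of these differences.

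The differences of the genes set apart were small. Their median was −0.34 for the lower genes and 0.34 for the higher genes, and 91 and 53 of them differed by at least 0.5. A further 64 genes were lower and 48 higher by at least 0.5 with libraries that overlapped. The differences of all genes ran from −0.89 for RWDD4, of which 2 of 3 guides were lower, to 0.98 for GATA2. On this scale no gene reached a difference of 1 in either direction. In edgeR, on reads summed per gene, GATA2 was at 1.01 and the cofactor gene ZFPM1 at −1.14. At the edge of the definition, OSTN was still set apart as lower, with its highest RUX level at 206.37 and its lowest DMSO level at 206.38, and the read-through gene RPL17-C18orf32 was not, with 174.25 and 174.23. On the other side JADE3 was still set apart as higher, with 357.42 against 357.39, and CELF2 was not, with 285.61 against 285.64. RWDD4 and these genes at the edge were chosen after their values were seen.

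The balance between lower and higher genes depended on how libraries were scaled. With control guides, 61.4% of the genes set apart were lower. The share was 47.0% when scaled over all guides, 47.6% for the values as deposited and 31.6% when scaled to library totals. Cyclic loess, which removes level-dependent shifts between libraries, gave 51.6%. The differences also moved with the level of a gene: the median was 0.04 in the tenth of genes with the lowest levels, where 35 genes were set apart as lower and 61 as higher, and −0.07 in the tenth with the highest levels, where 91 were lower and 13 higher. The control guides showed the same, with a median difference of 0.23 in their lowest quartile by level and −0.15 in the highest. The part of level in the calls given next was not tested beyond these values and the loess alternative.

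**Figure D1:**
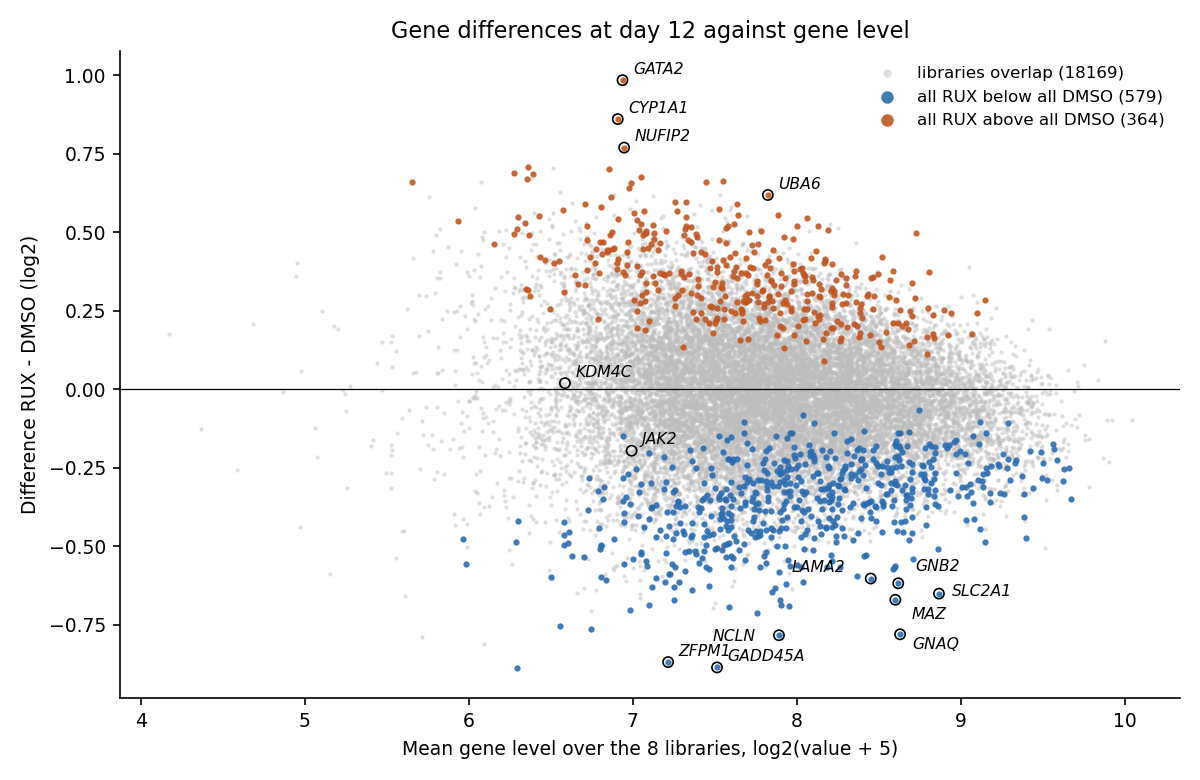
Each point is 1 of the 19112 scored genes, with its mean level over the 8 libraries (log2(value + 5)) on the horizontal axis and the log2 difference RUX minus DMSO on the vertical axis. Genes whose RUX libraries all lay below (blue, 579) or above (orange, 364) all DMSO libraries lie on both sides of zero, with lower genes more frequent at high levels. Circles mark genes named in the text, with JAK2 at −0.20 and KDM4C at 0.02 inside the cloud of overlapping genes.

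A test over all genes called few of them. In limma with a mean-variance trend, 7 genes (0.0366% of 19112) were lower under RUX at an adjusted p under 0.05 after Benjamini-Hochberg adjustment, and 0 genes (0%) were higher. The unadjusted p was under 0.05 for 1223 lower and 589 higher genes. All 7 called genes were among those set apart: the G protein subunits GNAQ and GNB2, the transcription factor MAZ, the stress gene GADD45A, the glucose transporter SLC2A1, the membrane protein gene NCLN and the laminin chain LAMA2. The quasi-likelihood test of edgeR on reads per gene called 4 lower (0.0209%: ZFPM1, GADD45A, MAZ and GNB2) and 1 higher (0.00523%: GATA2). DESeq2 called 50 lower and 3 higher of 18741 genes (0.267% and 0.016%), where the higher genes were GATA2, NUFIP2 and UBA6. The called genes of limma and edgeR had 3 in common, those of limma and DESeq2 had 6, and those of edgeR and DESeq2 had 5.

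The calls of limma depended on settings, libraries and guides. Without the mean-variance trend 0 genes were called in either direction. Without RUX 3 or without RUX 4 limma also called 0 genes, and without DMSO 1 or DMSO 4 it called 1, GNAQ. Scaling over all guides or leaving the values as deposited gave 3 calls (GNAQ, GADD45A and MAZ), cyclic loess 2 (GNAQ and GADD45A) and scaling to library totals 1 (GNAQ), so that GNB2, SLC2A1, NCLN and LAMA2 passed under none of these 4. Without DMSO 2 it called 40 lower and 3 higher. When the guide farthest from the others was left out of each gene, GNAQ still passed, while GNB2, MAZ, GADD45A, SLC2A1, NCLN and LAMA2 did not (limma adjusted p from 0.125 to 0.29). The guide left out was the weakest of GNAQ (−0.09) but the strongest of each of the others, such as GADD45A (−2.11). This contrast therefore cannot rank how well the calls hold.

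Heterotrimeric G proteins carry signals from receptors that cross the membrane several times, and GNAQ is the alpha subunit that activates phospholipase C beta. The level of GNAQ was 534, 478, 569.6 and 482 in DMSO 1 to 4 and 353, 327, 253 and 268 in RUX 1 to 4. The groups were far apart, with the highest RUX library below the lowest DMSO library by more than the SD of the RUX libraries (47.7, n = 4). The mean fell to 58.2% of that under DMSO, a difference of −0.78 (standard error 0.13, adjusted p = 0.0020 in limma, 0.0215 in DESeq2 and 0.065 in edgeR). All 4 guides were lower, with differences of −1.27, −1.17, −0.60 and −0.09. Without the guide farthest from the others, its weakest at −0.09, the difference was −1.01 (limma adjusted p = 2.3e-04). With the median over guides it was −0.57 and did not pass (limma adjusted p = 0.21). Without RUX 3 or RUX 4 the limma adjusted p of the gene was 0.071 and 0.052. Among the named genes GNAQ was called most often, in 18 of 23 alternative settings.

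The beta subunit GNB2 passed in all 3 tools. Its level was 432, 469.6, 532 and 502 under DMSO and 347, 271, 314 and 322 under RUX. No RUX library reached the lowest DMSO library. The difference was −0.62 (standard error 0.12, adjusted p = 0.028 in limma, 0.025 in edgeR, 0.0029 in DESeq2), and all 4 guides were lower, from −1.09 to −0.32. Its call was lost without any 1 library other than DMSO 2 or RUX 1 (limma adjusted p up to 0.15), and also with library total scaling (0.072), all-guide scaling (0.054), values as deposited (0.053) and cyclic loess (0.092).

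Of 33 subunits measured, 3 were set apart as lower and 3 as higher (9.09% each, against 3.03% and 1.9% of all genes), and the median difference was −0.05 against −0.02 over all genes. The list was chosen with earlier results of these data known and the lower members include GNAQ and GNB2, so these shares are no test. The third lower member was the gamma subunit GNG2 with a difference of −0.42 (393, 389, 515 and 357 under DMSO, 305, 327, 323 and 267 under RUX, limma adjusted p = 0.30), which was −0.25 without its farthest guide. The higher members were the inhibitory alpha subunits GNAI1 at 0.25 and GNAZ at 0.20 and the gamma subunit GNG8 at 0.20, none of which passed a test, and without the farthest guide GNAI1 was at 0.07. GNA11, the closest paralog of GNAQ, had a difference of −0.07 (95% confidence interval −0.33 to 0.19), and GNB1, the paralog of GNB2, −0.05 (−0.46 to 0.35). Of 15 partners of GNAQ and GNB2 chosen after these genes were known, such as the chaperone RIC8A (−0.12) and the effectors PLCB1 (0.22) and PLCB4 (0.32), 0 were set apart in either direction.

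Transcription factors of erythroid cells and megakaryocytes included ZFPM1, with the smallest adjusted p of all genes in both edgeR and DESeq2, and GATA2, which was higher. ZFPM1 (FOG1) is the cofactor that GATA1 needs in both lineages. Its level was 203, 195, 183 and 203 under DMSO and 92.4, 132, 80.1 and 124 under RUX. The DMSO libraries lay close together and all RUX libraries far below them. The difference was −0.87 (standard error 0.19), with an adjusted p of 0.054 in limma, 8.3e-04 in edgeR and 1.0e-07 in DESeq2. Of its 4 guides, 3 were lower, at −0.79, −1.31 and −1.70, and the other, with a mean value of 35.9 under DMSO and 47.4 under RUX, was higher by 0.32. Without that guide, the 1 that disagreed, the difference was −1.26 (limma adjusted p = 2.3e-04). With all guides, the fits without 1 library passed in limma only without DMSO 2 or RUX 2 (adjusted p of the others up to 0.24). Library total scaling gave a limma adjusted p of 0.15. Of 23 alternative settings, 9 called the gene.

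GATA2, a factor of blood stem cells and early progenitors whose place GATA1 takes during erythroid maturation, had the largest positive difference of all genes. Its level was 72.9, 56.6, 136 and 80.5 under DMSO and 184, 207, 140.4 and 147 under RUX. The groups were apart by little, since DMSO 3 lay just under RUX 3, while the other DMSO libraries lay far below. The mean of 198% of that under DMSO gave a difference of 0.98 (standard error 0.21), with an adjusted p of 0.054 in limma, 0.015 in edgeR and 1.1e-04 in DESeq2. All 4 guides were higher, by 0.41 to 1.42 (log2). DMSO 3, the library that stood apart, was also the highest DMSO library for this gene, so leaving it out widens the gap. Without DMSO 3 the difference was 1.22 and passed in limma (adjusted p = 0.0039). No other fit without 1 library passed (differences from 0.82 to 1.07, limma adjusted p from 0.077 to 0.20). GATA2 was called in 7 of 23 alternative settings.

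Of 37 such factors, 3 were set apart as lower (8.11%, against 3.03% of all genes) and 1 as higher (2.70% against 1.9%), with a median difference of 0.02 against −0.02 over all genes. This list too was chosen with earlier results of these data known. Beside ZFPM1, the lower ones were the ETS factors FLI1, which drives megakaryocyte genes, and SPI1 (PU.1), which drives myeloid genes. FLI1 lay between 149 and 209 in the DMSO libraries and between 106 and 127 in the RUX libraries (−0.61, limma adjusted p = 0.28). SPI1 was at 464, 502, 484 and 478 under DMSO and at 344, 401, 367 and 277 under RUX (−0.48, adjusted p = 0.13 in limma, 0.065 in edgeR and 0.0063 in DESeq2). All 4 guides of both genes were lower, and the groups did not overlap.

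Other members overlapped between the groups. RUNX1 differed by −0.59 and ETS1 by −0.54, at mean levels of 39.1 and 52.3 under DMSO. GATA1, the partner of ZFPM1, differed by −0.19 (95% confidence interval −0.74 to 0.36) on 3 guides. Of 19 GATA factors and subunits of the NuRD repressor complex, which ZFPM1 recruits, GATA6 was set apart (−0.20). This was 5.26%, against 4.93% of all genes. The others ran from −0.41 for MBD3 to 0.15 for RBBP4. The median of all 19 was −0.17 against −0.02 over all genes, with no test of this difference. These partners were chosen after the values of ZFPM1 and GATA2 were known.

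GADD45A encodes a small protein induced by DNA damage and growth arrest that binds the stress kinase kinase MAP3K4. Its level was 222, 242, 236 and 277 under DMSO and 115, 164, 113 and 132 under RUX. All RUX libraries were well below the DMSO libraries. The level fell to 54.1%, a difference of −0.89 (standard error 0.17, adjusted p = 0.023 in limma, 0.0089 in edgeR and 6.0e-06 in DESeq2). The guides were unequal, at −0.10, −0.51, −0.82 and −2.11. Without the last of them, sg_4620, the difference was −0.48 and no longer passed (limma adjusted p = 0.29). With all guides, it also did not pass without DMSO 1, DMSO 4, RUX 1, RUX 3 or RUX 4 (limma adjusted p from 0.071 to 0.13).

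Of 18 genes of the GADD45 family and the stress kinases, 3 were set apart as lower (16.7%, against 3.03% of all genes) and 0 as higher, while the median difference was 0.04 against −0.02 over all genes. The list was chosen with earlier results of these data known and the 3 include GADD45A, so this share is no test. The other lower genes were MAPK10 (JNK3) at −0.46, which passed in DESeq2 alone (adjusted p = 0.0215), and MAPK14 (p38 alpha) at −0.25. Without its farthest guide MAPK10 was at −0.26. The paralogs GADD45B and GADD45G differed by 0.03 and 0.19, and MAP3K4 by 0.26. MAPK8 (JNK1) differed by 0.38 with overlapping libraries.

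The other genes called by limma belong to separate functions. MAZ, a zinc finger factor that binds G-rich promoters, was at 513, 436, 543 and 458 under DMSO and at 301, 352, 318 and 250.2 under RUX. The groups were clearly apart and all 4 guides lower, for a difference of −0.67 (standard error 0.13, adjusted p = 0.023 in limma, 0.025 in edgeR and 0.0016 in DESeq2). In limma it passed without DMSO 2, DMSO 3 or RUX 2 and not without any of the others (adjusted p up to 0.13). ZNF148, another factor of G-rich promoters, was set apart too, at −0.56 (limma adjusted p = 0.33), as was SP3 at −0.14, while SP1 differed by 0.15.

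SLC2A1 (GLUT1) takes up glucose and is abundant in erythroid cells. It was at 578, 609, 654 and 493 under DMSO and at 464, 472, 289.8 and 288 under RUX. RUX 1 and RUX 2 lay just under the lowest DMSO library and RUX 3 and RUX 4 far below. The difference was −0.65 (standard error 0.13, adjusted p = 0.036 in limma, 0.14 in edgeR and 0.071 in DESeq2). Without RUX 3 or RUX 4 the limma adjusted p was 0.25 and 0.27, and the gene also did not pass without DMSO 1, DMSO 3 or DMSO 4. Of 11 other glucose transporters and hexokinases, 0 were set apart, against 4.93% of all genes, too few genes for 0 to stand out. Their differences ran from −0.24 to 0.18, with a median of −0.10 against −0.02 over all genes.

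NCLN (nicalin) sits in the endoplasmic reticulum membrane in a complex with NOMO and TMEM147. It was at 299, 330.1, 334 and 268 under DMSO and at 204, 215, 133 and 164 under RUX. The groups were apart and all 4 guides lower, for a difference of −0.78 (standard error 0.16, adjusted p = 0.028 in limma, 0.065 in edgeR and 0.0088 in DESeq2). It did not pass in limma without RUX 3, RUX 4, DMSO 1, DMSO 3 or DMSO 4 (adjusted p from 0.058 to 0.18). Its partners differed among themselves: TMEM147 was at 0.36 with overlapping libraries, and of the near-identical NOMO genes, whose guides can cut more than 1 copy, NOMO3 was set apart at −0.24 and NOMO1 and NOMO2 were at 0.18 and 0.01.

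LAMA2 is a laminin chain of the basement membrane of muscle and nerve. It was at 411, 422, 429 and 444 under DMSO and at 256, 288, 283 and 290.3 under RUX, with little spread in either group. The difference of −0.60 (standard error 0.12, adjusted p = 0.036 in limma, 0.095 in edgeR and 0.0016 in DESeq2) rested on 3 guides, all lower. With the guide that the day 0 filter had dropped, the difference was −0.46 and did not pass (limma adjusted p = 0.44). Among the fits without 1 library it passed only in that without DMSO 2.

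**Figure D2:**
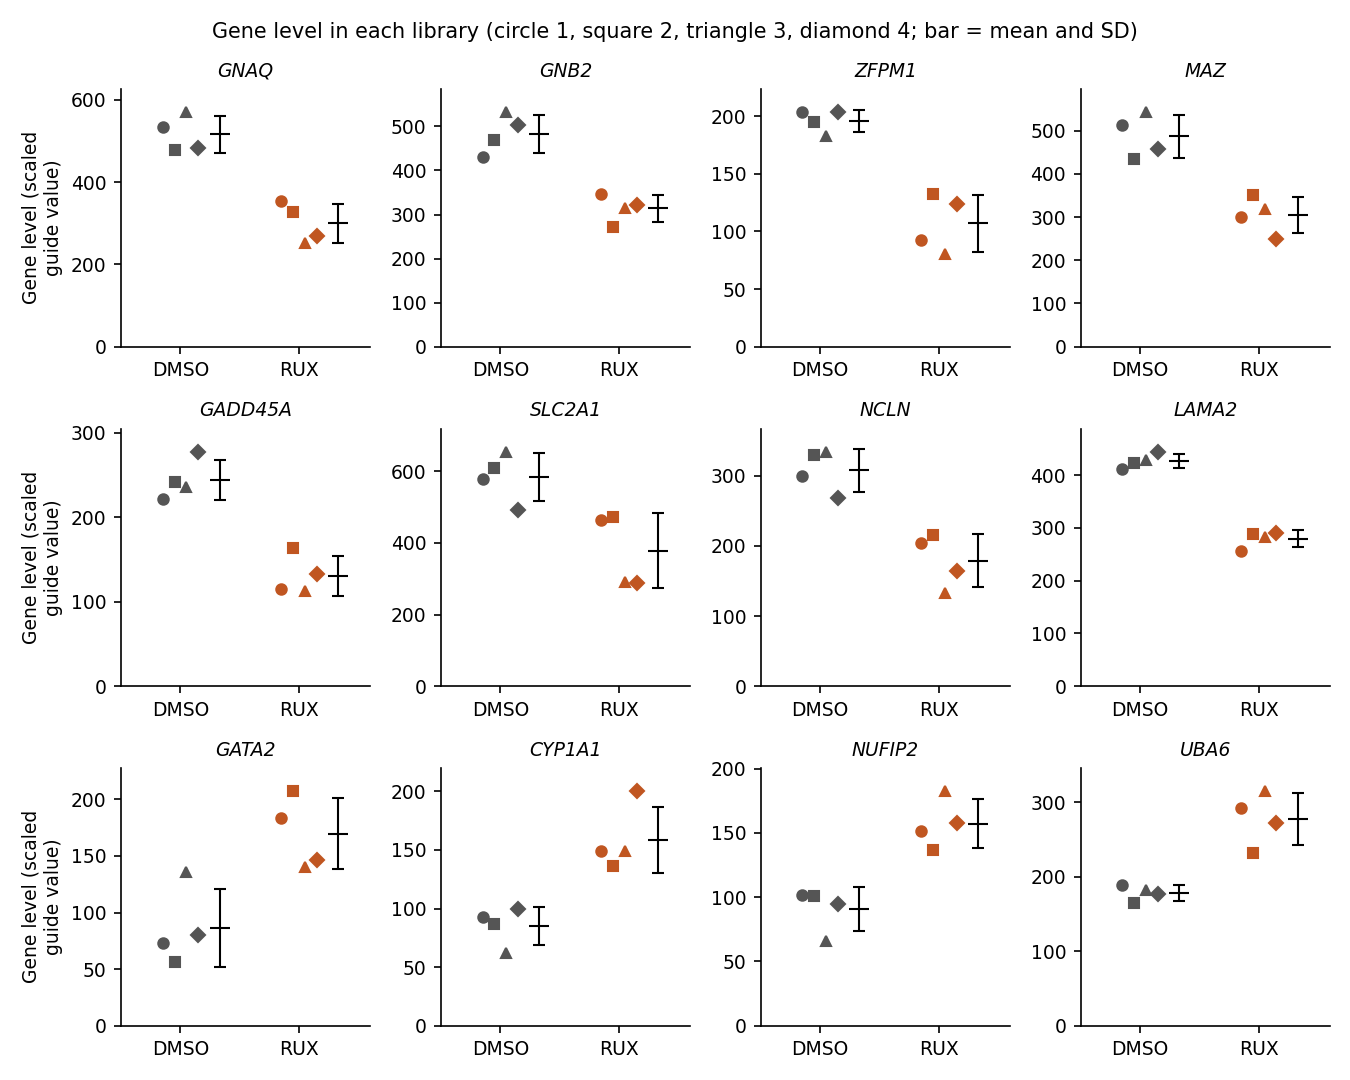
Gene level (scaled guide value, linear axis from 0) of 12 genes in each library, grey for DMSO and orange for RUX, with a symbol for each replicate number and a bar for the mean and SD (n = 4). In the upper 8 genes every RUX library lies below every DMSO library, and in the lower 4 every RUX library lies above, with the narrowest gap for GATA2 (DMSO 3 at 136, RUX 3 at 140.4).

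**Figure D3:**
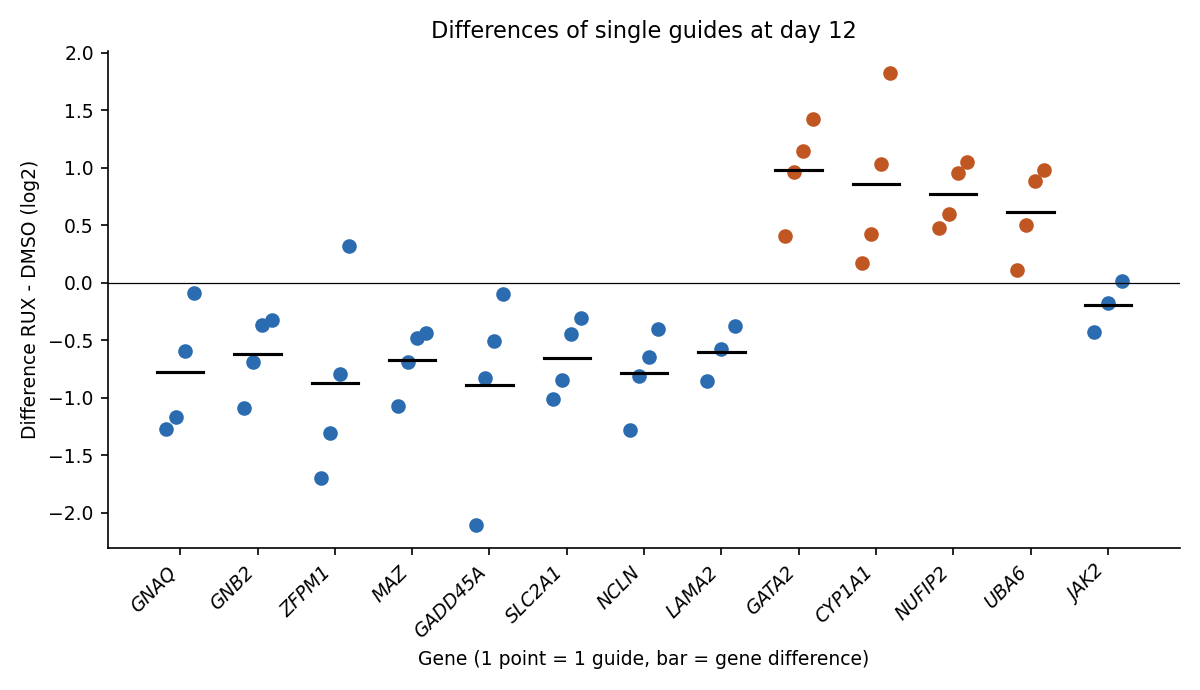
Log2 difference RUX minus DMSO of each guide (point) and of the gene (bar) for the same 12 genes and JAK2. The guides of a gene share a direction in 11 of these 13 genes, the exceptions being 1 guide of ZFPM1 at 0.32 and 1 of JAK2 near 0, and GADD45A has 1 guide at −2.11 far below its others.

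Among the other lower genes with at least 3 guides moving, the largest differences belonged to genes of unrelated functions. AMOT (angiomotin), which holds the coactivator YAP1 outside the nucleus, was at 267, 322, 257 and 249 under DMSO and at 131, 171, 187 and 173 under RUX. No library of the groups overlapped and all 4 guides were lower (−0.71, adjusted p = 0.054 in limma and 0.0057 in DESeq2). YAP1 itself was at 226, 347, 268 and 318 under DMSO and at 187, 205, 185 and 182 under RUX, again without overlap (−0.58, adjusted p = 0.17 in limma and 0.020 in DESeq2).

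The YAP1 paralog WWTR1 was set apart at −0.19. The other 12 members of the Hippo pathway measured beside AMOT overlapped, from NF2 at −0.35 to SAV1 at 0.51. With YAP1, 2 of 14 partners were set apart (14.3%, against 4.93% of all genes). These partners were again chosen after the values of AMOT were known.

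PPP1R15B, which directs a phosphatase to the translation factor eIF2 alpha and so restores protein synthesis, was at 148, 159.7, 172 and 147 under DMSO and at 100.4, 106, 72.1 and 102 under RUX. The groups did not overlap (−0.70, limma adjusted p = 0.22). The opposing kinase EIF2AK3 (PERK) differed by 0.51 in the other direction, but DMSO 2 at 330.0 lay above RUX 2 at 315, so its libraries overlapped. The other eIF2 alpha kinases EIF2AK1, EIF2AK2 and EIF2AK4 differed by 0.34, −0.19 and −0.23, and the second phosphatase adaptor PPP1R15A by 0.15.

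KANSL2, a subunit of the NSL histone acetyltransferase complex, differed by −0.76 (limma adjusted p = 0.25). It was carried by 1 guide with few reads, at −2.54 from a mean of 55.3 to 6.99, while the others were at −0.22, −0.46 and 0.20. Without that guide the gene was at −0.16, and in edgeR at −0.41. The RUX libraries were at 59.8, 93.8, 61.3 and 60.2, so that RUX 2 was far above the other 3, under a lowest DMSO library of 100.5. Of 8 other members of the complex, 0 were set apart, against 4.93% of all genes, too few genes for 0 to stand out. Their median was −0.15 against −0.02 over all genes, with KAT8, the acetyltransferase of the complex, at −0.34. MRPL32, of the mitochondrial ribosome, differed by −0.69, as did HAND1, a factor of heart development, MYOT, of the muscle sarcomere, and GLYATL2, a glycine acyltransferase. PPP1R17, a phosphatase regulator of Purkinje cells, differed by −0.67 and KCNH3, a neuronal potassium channel, by −0.56. Of these 6 genes, HAND1, MYOT, PPP1R17 and KCNH3 passed in DESeq2 (adjusted p from 0.0029 to 0.039), none passed in limma (0.054 to 0.22) and none in edgeR (0.065 to 0.35). MYOT was at −0.44 without its farthest guide.

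On the other side, no gene with a higher level under RUX passed in limma. CYP1A1, a cytochrome P450 enzyme that the aryl hydrocarbon receptor induces, was at 92.8, 87.0, 62.3 and 99.6 under DMSO and at 149, 136, 149 and 200.0 under RUX. The groups were apart (0.86, adjusted p = 0.093 in limma, 0.41 in edgeR and 0.32 in DESeq2). The difference was carried by 2 guides with few reads, at 1.82 and 1.03 with mean values of 21.4 and 32.4 under DMSO, while the other 2 were at 0.17 and 0.42. Without the guide farthest from the others it was 0.54.

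NUFIP2, an RNA-binding partner of the fragile X protein FMRP, was at 102, 101, 66.1 and 94.3 under DMSO and at 151, 137, 182 and 158 under RUX, with no overlap and all 4 guides higher (0.77, adjusted p = 0.15 in limma and 0.0057 in DESeq2). UBA6, an enzyme that activates ubiquitin and the ubiquitin-like FAT10, was at 189, 165, 182 and 177 under DMSO and at 292, 232, 314 and 272 under RUX (0.62, adjusted p = 0.11 in limma and 0.019 in DESeq2). Its 4 guides were all higher, and the lowest RUX library was well above the highest DMSO library. FMR1 differed by −0.08 and UBA1, the main ubiquitin activating enzyme, by −0.31.

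Other higher genes named by size differed by 0.66 to 0.70 and passed in no tool that gave an adjusted p, with limma adjusted p from 0.13 to 0.40. They were MPHOSPH10, a nucleolar protein of ribosome assembly (86.2 ± 8.80 under DMSO and 144 ± 17.1 under RUX, SD, n = 4), the lymphoid and neural factor TCF4, the membrane protein LSMEM1, the Golgi protein GOLPH3 (102 ± 23.6 and 163 ± 3.27), the zinc finger gene ZNF615, the adaptor CMIP, the blood group protein ART4 and KLHL10. KLHL10 is an adaptor of CUL3, a ubiquitin ligase scaffold that was also set apart, at 71.5, 79.6, 80.6 and 90.9 under DMSO and 148, 119, 126 and 105 under RUX (0.59, limma adjusted p = 0.34). Without the farthest guide TCF4 was at 0.24, CMIP at 0.27, KLHL10 at 0.37 and CUL3 at 0.32, and in edgeR ART4 was at 0.29. DESeq2 gave no adjusted p for TCF4, ZNF615 or CMIP. The other 8 partners of CUL3 overlapped between the groups, as did the 6 of UBA6, where 4.93% of all genes were set apart. IMP4, a partner of MPHOSPH10, was set apart in the opposite direction, at −0.62.

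JAK2, the target of the drug, was not set apart. The level of JAK2 rested on 3 guides and was 132, 143, 117 and 135 under DMSO and 158, 96.3, 111 and 100.3 under RUX. RUX 1 lay above every DMSO library and the other RUX libraries below them, so the groups overlapped. The difference was −0.20 (−0.08 without the farthest guide) with a 95% confidence interval of −0.59 to 0.20 (exact permutation of the 8 libraries, two-sided p = 0.29, where no p below 0.029 can arise, limma adjusted p = 0.80). KDM4C, the histone demethylase that the study is about, was at 111, 102, 64.9 and 91.1 under DMSO and at 97.3, 88.2, 74.8 and 110.3 under RUX. Its groups overlapped almost wholly, with a difference of 0.02 (−0.42 to 0.46, exact permutation p = 0.97, limma adjusted p = 0.99). The intervals exclude neither a moderate fall nor, for KDM4C, a moderate rise.

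Of 26 receptors, kinases and STAT factors of JAK-STAT signalling, 0 were set apart in either direction, against 4.93% of all genes, and the median difference was −0.03. Limma, edgeR and DESeq2 called 0 of them. An unadjusted p under 0.05 in limma was found for 1, against 1223 lower and 589 higher of all 19112 genes. STAT5A and STAT5B, the main STAT factors downstream of JAK2, differed by −0.23 and 0.10, the erythropoietin receptor EPOR by 0.02 and JAK1 by −0.03. The differences of all members ran from −0.43 to 0.34.

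The brakes on the pathway were no different in this respect. Of 25 negative regulators of JAK2 signalling, 0 were set apart, against 4.93% of all genes, and 0 passed in limma, edgeR or DESeq2. An unadjusted p under 0.05 in limma was found for 1, against 1223 lower and 589 higher of all 19112 genes. The adaptor SH2B3 (LNK) differed by −0.31, SOCS1 by −0.21, SOCS3 by −0.03, the ubiquitin ligase CBL by 0.15, the phosphatase PTPN2 by 0.14 and CISH by 0.31. SH2B3 had 3 RUX libraries at 264, 292 and 279 below and RUX 1 at 393 above the lowest DMSO library of 349.

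In pathways downstream of and parallel to JAK2, 0 genes were called by limma, edgeR or DESeq2, and the counts of genes set apart are read against 4.93% of all genes. Of 23 positive members of the RAS-MAPK pathway, 0 were set apart (median 0.02). Of 24 RAS-MAPK brakes, 3 were set apart (12.5%): DAB2IP, a RAS GTPase activator, was lower (−0.45), and NF1, another RAS GTPase activator, and CUL3 were higher (0.31 and 0.59). NF1 stood at 130.5, 124, 99.5 and 114 under DMSO and at 143, 143, 149 and 147 under RUX, but 2 of its 4 guides were lower, and without the farthest guide NF1 was at 0.04 and DAB2IP at −0.29. Of 27 positive members of the PI3K, AKT and mTOR pathway, 4 were set apart (14.8%): LAMTOR1, RPS6KB2 and PIK3R2 were lower (−0.37, −0.18 and −0.15) and RRAGA was higher (0.20). Without the farthest guide RPS6KB2 was at −0.09, RRAGA at 0.04 and PIK3R2 above 0, also at 0.04. Among 20 brakes of that pathway the mTOR inhibitor AKT1S1 was higher (0.27).

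Of 16 SRC family kinases and SYK, 2 were set apart as higher (12.5%, against 1.9% of all genes), among them SRC, at 0.29 with 2 of 4 guides higher and at −0.11 without the farthest guide. Of 35 receptor tyrosine kinases, 4 were set apart (11.4%): AXL was lower (−0.31) and the macrophage growth factor receptor CSF1R, LTK and FGFR2 were higher (0.36, 0.28 and 0.23). LTK was at 0.01 without its farthest guide. Over all 35, 24 differences were below 0, with a median of −0.07 against −0.02 over all genes. In limma 4 lower and 1 higher had an unadjusted p under 0.05, against 1223 and 589 of all 19112 genes. None of these kinases passed a test.

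Genes of cell death and the cell cycle also gave 0 calls, and their counts are read against 4.93% of all genes set apart. The share was 11.1% of the survival genes and 0% of the death genes. It was 12.5% of the p53 and RB genes and 11.1% of the cyclin group, in lists of few genes. Of 9 survival genes, CFLAR (cFLIP), which holds back caspase 8, was higher, at 119.9, 122, 102 and 91.2 under DMSO and 153, 171, 139.6 and 153 under RUX (0.49, or 0.22 without the farthest guide, limma adjusted p = 0.39), and of 19 death genes 0 were set apart. Among 16 genes of the p53 and RB pathways, ATM, the kinase of the DNA break response, was lower (−0.42, or −0.24 without the farthest guide) and the CDK inhibitor CDKN2C was higher (0.37). Among 18 cyclins, cyclin-dependent kinases and their regulators, WEE1, which restrains CDK1, was lower (−0.60) and CCND2 was lower (−0.29). WEE1 was at 102, 119, 97.1 and 110.2 under DMSO and at 54.9, 92.6, 45.1 and 96.3 under RUX, where RUX 2 and RUX 4 lay just under the DMSO libraries. Its difference was carried mostly by 1 guide with few reads, at −1.83 from a mean of 60.0 to 15.3, while the others were at −0.59, −0.03 and 0.05. Without that guide WEE1 was at −0.19, and in edgeR at −0.22.

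Among the chromatin and housekeeping groups, the proteasome had the most negative median of the 22 lists, −0.15 over 32 genes against −0.02 over all genes, with 22 members below 0. PSMD6 and PSMD2, both of its regulatory particle, were set apart (−0.63 and −0.42), which was 6.25% of the list against 4.93% of all genes. In limma, edgeR or DESeq2 0 members passed. At an unadjusted p under 0.05 in limma, 2 were lower and 0 higher, against 1223 and 589 of all 19112 genes. Of 79 genes of the cytosolic ribosome, RPS15 and RPS13 were lower (both −0.49) and RPL4 was higher (0.47), with a median of −0.02. These were 3.80% of the list, under the 4.93% of all genes. Without the farthest guide PSMD6 was at −0.36, RPS15 at −0.30 and RPL4 at 0.24. Of 21 KDM demethylases, 0 were set apart, and KDM4B was lowest, at −0.51, with RUX 1 at 147 above DMSO 2 at 139.

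Of 17 Polycomb and DNA methylation genes, 2 were set apart (11.8%, against 4.93% of all genes). BMI1 was higher (0.49, or 0.20 without the farthest guide) and PCGF1, another PCGF subunit of Polycomb complexes, was lower (−0.37). Single members were set apart in 3 further groups. The transporter ABCC4 was lower among 13 genes of drug transport and the CYP3A enzymes (−0.24, 7.69% of the list). The mitochondrial iron importer SLC25A37 was higher among 18 genes of heme synthesis and iron uptake (0.36, 5.56%). MED13L was higher among 22 genes of SWI/SNF and the Mediator kinase module (0.33, 4.55%). Over all 22 lists together, 23 of 547 different genes were set apart as lower and 19 as higher, against 3.03% and 1.9% of all genes. Limma called 3 of them, GADD45A, GNAQ and GNB2 (0.0366% of all genes were called lower), and DESeq2 called 7 (0.267% lower and 0.016% higher of all genes). Of 66 named genes other than KDM4C, 27 had a difference smaller by over 1.5 times, or of the other sign, without the farthest guide. A difference larger by over 1.5 times was seen in 2, ABCC4 and AXL, while others, such as ZFPM1 and GNAQ, grew by less.

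**Figure D4:**
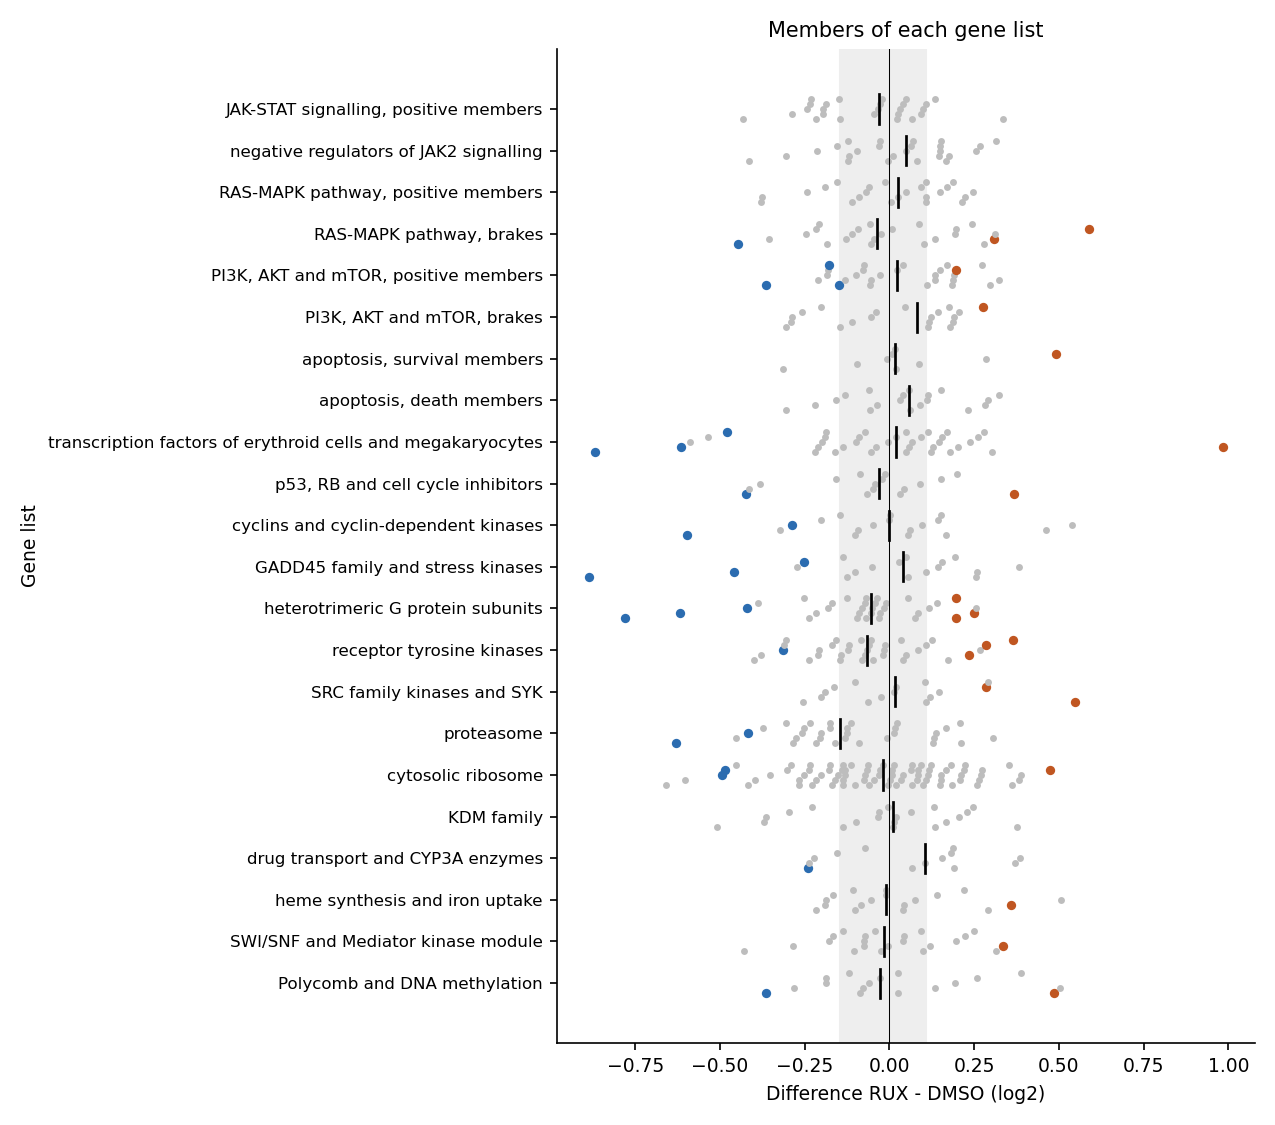
Log2 difference RUX minus DMSO of every measured member of the 22 gene lists (points, with height inside a row used only for spacing), with the list median as a bar and the middle 50% of all genes as a grey band. Blue and orange points, members set apart as lower or higher, number at most 6 in a list, and all list medians lie within 0.15 of zero.

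At the level of single guides, limma called 7 of 76424 guides lower (0.00916%) and 0 higher (0%), with 4480 and 2343 at an unadjusted p under 0.05. The guide sg_4620 against GADD45A was at 289.9, 245.0, 440.0 and 437 under DMSO and at 33.05, 144.6, 65.4 and 99.4 under RUX (−2.11, limma adjusted p = 0.017). The others targeted MT1E, a metallothionein (−2.44), ZCWPW2 (−1.94), TDP2, a DNA repair phosphodiesterase (−1.67), FAM193A (−1.61), ACTL10 (−1.32) and SMYD3, a lysine methyltransferase (−1.30), with limma adjusted p from 0.0053 to 0.041. In FAM193A and MT1E all 4 guides were lower and the gene differed by −0.59 and −0.70, whereas in TDP2, ZCWPW2 and ACTL10 2 of 4 guides were lower. These genes, apart from GADD45A, were chosen after their values were seen.

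Guides of a gene set apart did not always move together. Among genes with 4 guides, all 4 had the sign of the gene in 294 of 549 lower genes (53.6%) and 151 of 350 higher genes (43.1%), and in 14.1% of all genes. The separation of the gene had a part in these shares, since it was read from the same guides. In 39 of the lower and 27 of the higher genes no more than 2 guides moved with the gene.

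The genes that carried the calls were placed on GRCh38 (GENCODE 44), with GNAQ on chromosome 9 from 77716097 to 78031811, GNB2 on chromosome 7 from 100673567 to 100679174, ZFPM1 on chromosome 16 from 88453280 to 88537031 and GATA2 on chromosome 3 from 128479427 to 128493201. MAZ also lies on chromosome 16, from 29806106 to 29811164, NCLN on chromosome 19 from 3185563 to 3209575 and LAMA2 on chromosome 6 from 128883138 to 129516566. GADD45A (67685201 to 67688334) and SLC2A1 (42925353 to 42958893) are both on chromosome 1. The share of genes set apart as lower ran from 1.71% on chromosome 14 to 4.08% on chromosome 11, and that of genes set apart as higher from 0.474% on chromosome 21 to 3.44% on chromosome 18. Cut sites of the guides were not analysed here.

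**Figure D5:**
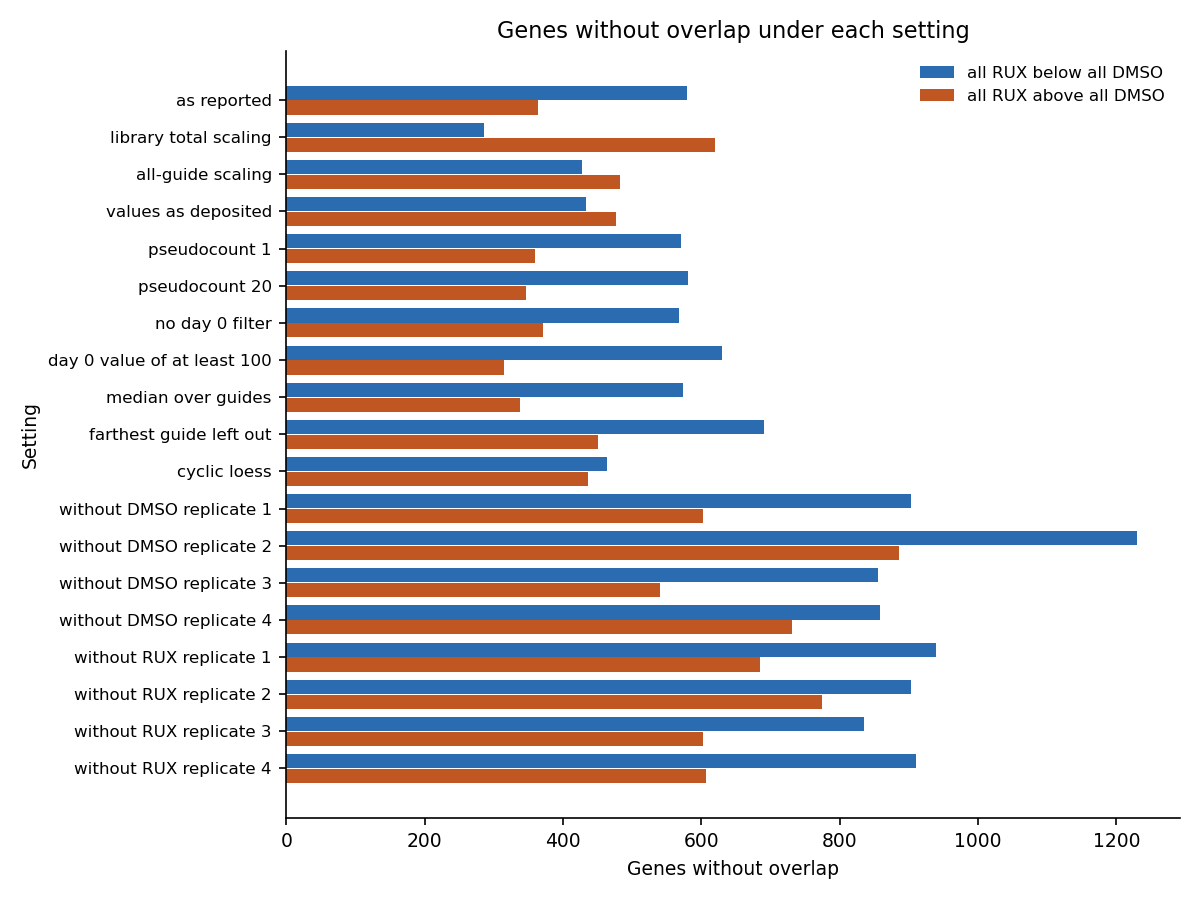
Number of genes whose 4 RUX libraries all lay below (blue) or above (orange) all DMSO libraries under each setting of the analysis (bars from 0). Blue exceeds orange as reported (579 and 364), but not when libraries are scaled to their totals (286 and 619), over all guides (428 and 482) or left as deposited (433 and 477). Settings that leave out a library compare 7 libraries, where separation is easier, and so give higher counts.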

How the data were processed

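The authors counted sequenced guides with MAGeCK and deposited 1 table with a normalized signal per guide and library. Each deposited signal is a whole read count times 1 factor per library (100% of values within 0.001 of a whole number), and reads were recovered from it. The labels name the build hg38. The authors' beta scores, which also correct for copy number, were not used.

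Libraries were scaled to each other on the control guides (median ratio). Guides with a deposited day 0 value of at least 30 were kept (1007 gene guides were dropped), genes needed at least 2 guides, and the gene level was the mean of log2(value + 5). limma 3.58.1 (R 4.3.3) compared 4 RUX with 4 DMSO libraries, with a mean-variance trend and Benjamini-Hochberg adjustment over all 19112 genes, at a threshold of 0.05. edgeR 4.0.16 and DESeq2 1.42.0, on recovered reads summed per gene, were alternatives, and DESeq2 gave no adjusted p for 371 genes. JAK2 and KDM4C were also compared by exact permutation of the libraries. Intervals are 95% confidence intervals of limma. Libraries held 19631338 to 26611323 reads, with a median scaled value of 233 to 240.5 per guide, and guides with few reads vary most. The steps were tested on simulated data.

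Named genes were up to 12 per direction by size with at least 3 guides moving, those past limma or edgeR, up to 6 per direction past DESeq2, up to 4 separated members of each of 22 lists, JAK2, KDM4C and their counterparts. The members and lists were chosen with earlier results of these data known, and the partners of leading genes after the values of those genes were seen. GENCODE 44 gave gene positions (GRCh38), 17948 by symbol and 980 by an older symbol. Alternatives were other scalings, pseudocounts, day 0 filters and guide summaries, no trend, array weights, a replicate block, each library left out, and cyclic loess, which was chosen after seeing the data. Some genes that met these rules are not reported here.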

Additional observations from a re-analysis of the deposited data

Results flagged for a closer look

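In 10 of 180 sets of 4 libraries (levels of named genes, medians of gene lists and measures of the libraries), 1 library lay far outside the remaining 3. At a rate of 1 in 20, 9 such sets arise by chance. For KANSL2, RUX 2 stood at 93.8 (others 59.8 to 61.3). For PPP1R15B, RUX 3 stood at 72.1 (others 100.4 to 106). For ART4, RUX 4 stood at 273 (others 195 to 202). For BMI1, RUX 3 stood at 238 (others 177 to 186). Under DMSO, AXL stood at 395 in DMSO 2 (others 370.1 to 374) and PSMD2 at 74.4 in DMSO 2 (others 89.1 to 91.9).

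The median level of the positive members of JAK-STAT signalling was 263 in DMSO 1 (others 219 to 225), and that of the positive members of the RAS-MAPK pathway was 211 in DMSO 3 (others 168 to 174). The median of the Polycomb and DNA methylation genes was 212 in RUX 1 (others 249 to 255). The SD of the control guides was 0.51 in DMSO 3 (others 0.27 to 0.30, log2).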

How the results depend on the processing

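Over 23 alternative settings, limma's 7 lower calls became 1 with library total scaling, 3 with all-guide scaling or values as deposited, 2 with cyclic loess or a day 0 value of at least 100, 13 with a pseudocount of 20, 11 with the farthest guide left out, 15 with array weights and 0 without the mean-variance trend. edgeR gave 4 and DESeq2 gave 50. The 0 higher calls became 1 with a pseudocount of 20, with the farthest guide left out or by edgeR, 2 with array weights and 3 by DESeq2. Leaving out 1 library gave 0 to 40 lower calls (0 without RUX 3 or RUX 4, 1 without DMSO 1 or DMSO 4, 4 without DMSO 3 or RUX 1, 40 without DMSO 2) and 0 to 3 higher calls. The cause was not tested.

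With a replicate block limma called 16 lower and 1 higher genes, and 6 lower and 1 higher guides. Replicate numbers are shared between the conditions, but deviations of libraries with the same number correlated at −0.01, −0.13, −0.11 and 0.03, so the numbers do not show pairs.

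Genes without overlap numbered 286 lower and 619 higher with library total scaling. Without 1 library they numbered 835 to 1230 lower and 540 to 885 higher, since 7 libraries separate more easily. The 7 lower guide calls became 0 without a day 0 filter, and 0 to 5 without 1 library. The 0 higher guide calls became 2 with library total scaling and 0 to 1 without 1 library.

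Of the differences of named genes, 14 values changed sign, all in genes that no test called. PIK3R2 was at 0.094 with a day 0 value of at least 100 and 0.044 with the farthest guide left out. SRC was at −0.11 in both of these and −0.082 by edgeR and DESeq2. KDM4C was at −0.087 with the median over guides, −0.042 with array weights, −0.047 by edgeR and DESeq2, −0.075 with cyclic loess, and from −0.13 to 0.12 without single libraries (below 0 without DMSO 3, RUX 1 or RUX 4). Another 1441 values kept their direction and side of the threshold, 87 fell short of it and 44 passed it. Depth limits guides with few reads, such as those of CYP1A1 and RUNX1.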
